A study of Mus musculus with 8 samples.

Results

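The genes described here are 5 parts of one growth factor system: the receptor tyrosine kinases Alk and Ltk, the heparin-binding growth factors midkine (Mdk) and pleiotrophin (Ptn), and the receptor phosphatase Ptprz1. They were chosen by name, with earlier results of these data known. Every non-control array probe whose RefSeq accession maps to 1 of them was taken. That gave 8 probes of 55681, and all 5 genes were among the 13539 genes tested of 20660 with a probe.

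Alk is known from neuroblastoma, where activating mutations and amplification of the receptor occur. Ltk is its closest relative in the kinase family. The secreted proteins Alkal1 and Alkal2 activate both receptors. Midkine and pleiotrophin are small basic proteins that share a fold and bind heparin, heparan sulfate and chondroitin sulfate. Both have been reported as Alk ligands, although whether they bind Alk directly is disputed. A better established receptor is Ptprz1, a phosphatase whose chondroitin sulfate chains bind both factors, and ligand binding lowers its activity. Midkine was first found as a transcript induced by retinoic acid in embryonal carcinoma cells, and retinoic acid is a differentiating agent for neuroblastoma cells.

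Primary spheres were grown from superior mesenteric ganglia of mice aged 3 weeks, and their transcripts were measured on 1-colour microarrays. All mice were TH-MYCN+/- hemizygotes on the 129+Ter/SvJcl background. In this line the tyrosine hydroxylase promoter drives human MYCN, so the transgene is on in catecholaminergic cells, and neuroblastoma can follow. The cells of each of 4 animals' ganglia were divided and grown for 8 days in RA (+) medium, which contains retinoic acid, or in RA (-) medium, which lacks it. No spheres without the transgene were analysed here, and the retinoic acid dose is not given in the sources used here.

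The comparison asks how spheres of the same animal differ between the media. The arrays separated by medium on a first component with 81.7% of the variance, on which the RA (-) array of animal 1 lay at 42.3 and the other RA (-) arrays at 59.5 to 66.2. Values without animal 1 are therefore given for each member that was called. From 48.5% to 55.3% of an array's spots stood well above background. All 15 sympathoadrenal markers passed the filter on dim probes. Of these 6 were called higher and 5 lower, beside 36.1% and 28.2% of all tested genes. Th, the check of the tissue, rose by 3.59 on the log2 scale (SE 0.14), while Slc18a1 (−3.12) and Dbh (−1.53), named after their values were seen, were called lower. Dhrs3, a retinoic acid-induced retinaldehyde reductase, had a change of −5.00 (SE 0.12).

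A level below is a log2 signal minus the array's own 75th percentile, and a change is RA (-) minus RA (+) within an animal. A gene is called when its adjusted p from limma is under 0.05. Of all tested genes 64.3% were called, 36.1% higher and 28.2% lower in RA (-) medium, and for 53.3% the levels of the media did not overlap. Of the 5 members, 4 were called: Mdk was higher, and Ltk, Ptn and Ptprz1 were lower, each in all 4 animals and without overlap between the media. Alk was not called. By probe, 7 of the 8 were called, 2 higher and 5 lower, where 57.8% of all tested probes were called, 35.9% higher and 21.9% lower. With 4 of 5 genes called against a background of 64.3%, the count itself does not set these genes apart. Their sizes lay toward the edges of the distribution: 1.33% of tested genes had a larger change in size than Ltk, 7.11% than Ptprz1 and 8.33% than Ptn, against 88.8% for Alk, and 95.7% had a lower signed change than Mdk. The rank of Ltk is approximate, since 2 of its 4 RA (-) signals were not well above background. These are bulk samples, so a change in the share of cells that make a transcript and a change in transcript per cell cannot be told apart.

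**Figure D1:**
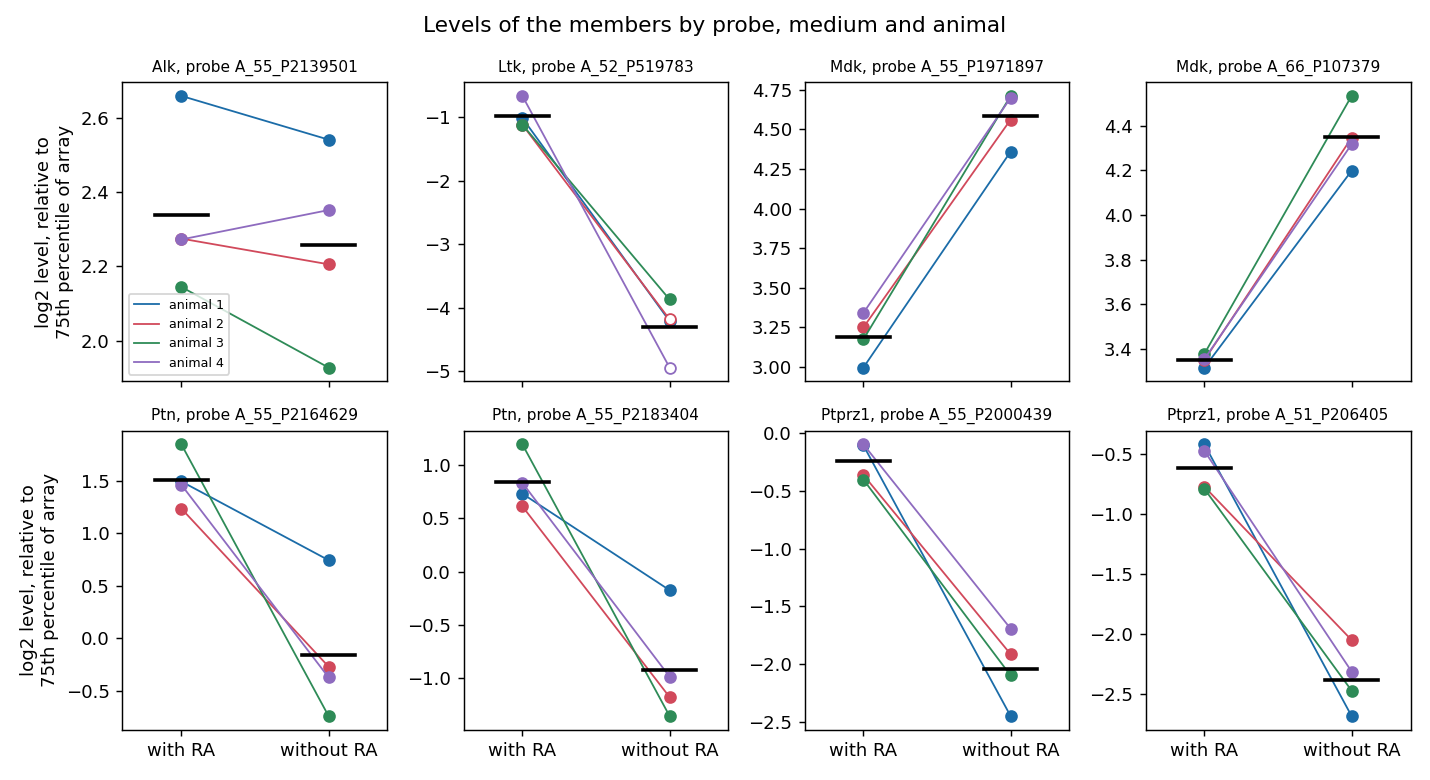
Log2 level of each of the 8 probes (y axis, minus the array's 75th percentile, with its own range in each panel) in both media (x axis); points joined by a line are 1 animal, black bars are means of 4 arrays, and open points were not well above background. Mdk is higher without retinoic acid in all 4 animals by both probes, Ltk, Ptn and Ptprz1 are lower, and the Alk levels of the media overlap.

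The letters upstream of the members' starts are shown because 3 of them fell together without retinoic acid while Alk, the closest relative of Ltk, did not pass the test. The 250 bases before the annotated start come from RefSeq (GRCm38.p6), written 5′ to 3′ on the strand of the gene, for the 4 members that matched the promoter table. Mdk did not match. Capitals mark a retinoic acid receptor half-site.
Alk, chr17:72604308-72604557, minus strand: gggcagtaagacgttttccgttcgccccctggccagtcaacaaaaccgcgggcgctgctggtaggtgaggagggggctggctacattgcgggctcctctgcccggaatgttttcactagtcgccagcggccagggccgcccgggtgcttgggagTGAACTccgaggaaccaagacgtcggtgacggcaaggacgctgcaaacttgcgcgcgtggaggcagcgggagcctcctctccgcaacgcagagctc
Ltk, chr2:119758526-119758775, minus strand: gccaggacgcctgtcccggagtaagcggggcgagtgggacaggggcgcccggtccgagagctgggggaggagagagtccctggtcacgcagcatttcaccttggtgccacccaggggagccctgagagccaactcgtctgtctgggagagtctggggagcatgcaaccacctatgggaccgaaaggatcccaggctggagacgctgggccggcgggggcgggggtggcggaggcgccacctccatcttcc
Ptn, chr6:36810180-36810429, minus strand: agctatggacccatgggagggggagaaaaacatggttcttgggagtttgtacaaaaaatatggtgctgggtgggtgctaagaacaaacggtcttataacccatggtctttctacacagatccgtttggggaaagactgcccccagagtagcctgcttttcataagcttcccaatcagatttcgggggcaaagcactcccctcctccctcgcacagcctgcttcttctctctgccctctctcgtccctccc
Ptprz1, chr6:22875252-22875501, plus strand: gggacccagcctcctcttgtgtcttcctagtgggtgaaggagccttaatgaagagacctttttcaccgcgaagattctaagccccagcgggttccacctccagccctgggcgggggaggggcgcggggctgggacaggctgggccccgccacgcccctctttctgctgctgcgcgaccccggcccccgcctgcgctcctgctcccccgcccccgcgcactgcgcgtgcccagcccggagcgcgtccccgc

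The half-site was searched on both strands in its usual form AGGTCA, and also in the form GGGTCA with another first base, the form AGTTCA with another middle base, and the form GGTTCA with both. The Alk window holds 1, written TGAACT on the gene's strand, and it begins 96 bases before the start. The Ltk, Ptn and Ptprz1 windows hold none. Such a match is common: 38.6% of the 32851 windows of this length in the table have at least 1. Direct repeats of the half-site with a spacer of 2 or 5 bases occur in 0.174% and 0.0883% of windows, and in none of these 4. The MYC E-box CACGTG, found in 6.02% of windows and overlapping no half-site here, is also in none of the 4. The Alk, Ltk and Ptprz1 windows are rich in G and C (65.2%, 68.8% and 71.6%), and the Ptn window less so (52%), against a median of 52.4% over the table. A window covers 1 annotated start, and distal elements lie outside it.

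The receptors come first. Alk stood at 2.66, 2.27, 2.14 and 2.27 in RA (+) medium (animals 1 to 4) and at 2.54, 2.21, 1.93 and 2.35 in RA (-) medium. Its order among animals was nearly the same in both media, with animal 1 highest and animal 3 lowest. The change was −0.081 (SE 0.079, 95% interval −0.28 to 0.11, limma adjusted p = 0.401), lower in 3 of 4 animals. The spread between animals was wider than the difference between media: the means were 2.34 ± 0.22 and 2.26 ± 0.26 (SD, n = 4).

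The small Alk value moved with the scaling. It was 0.066 with spike-in scaling (adjusted p = 0.862) and −0.16 under normexp with quantile normalization, where it was called (adjusted p = 0.0481). Over all alternatives the adjusted p ran from 0.0481 to 0.862. Over all tested genes the median moved too, from 0.07 in the reported fit to 0.22 with spike-in scaling and −0.04 when arrays were scaled on detected probes. No direction is given for Alk.

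Ltk, the other receptor of the family, was far lower without retinoic acid. Its processed intensity was 149, 141, 105 and 188 units in RA (+) medium and 15.9, 13.4, 17.9 and 7.63 in RA (-) medium, animals 1 to 4. As levels these were −1.02, −1.12, −1.12 and −0.67 against −4.21, −4.19, −3.87 and −4.94. Every RA (-) array lay below every RA (+) array, and 2 of the 4 RA (-) arrays, those of animals 1 and 3, were well above background. The fitted change was −3.32 (SE 0.25, adjusted p = 0.000211), about 10-fold lower, and −3.36 without animal 1. In animals 1 and 3, where both arrays measured it, the changes were −3.20 and −2.75.

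Because Ltk came down to the background, its size is less certain than its direction. Under normexp with quantile normalization, which compresses dim signals by an offset, the change was −1.39. It was called under every alternative that tested it, with adjusted p of at most 0.00181. Requiring signal above background on all 8 arrays removed Ltk from the test.

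Within each animal the Alk change exceeded the Ltk change by 3.08, 3.00, 2.53 and 4.36, a mean of 3.24 ± 0.78 (SD, n = 4). Scaling of the arrays cancels in this difference. An exact two-sided sign-flip permutation test over the 4 animals gave p = 0.125, the smallest this design allows, and 0.125 after adjustment over the 2 pairs of members compared. The pair tests were not among the planned tests. The changes given above already fixed this p, so it adds no support to them. As a ratio of signals the mean difference is 9.46-fold, but 2 of the 4 RA (-) Ltk signals behind it were not well above background, and under normexp with quantile normalization the fitted changes differed by 1.23, or 2.34-fold. The ratio bears on unequal change of the probes and not on whether Alk stayed level.

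The genes of the activating ligands were not measured above background. Alkal1 and Alkal2 have 1 probe each, neither was well above background on any of the 8 arrays, and neither was tested. Alkal1 signals were 2.92 to 8.76 intensity units and Alkal2 signals 2.80 to 4.02, against a 75th percentile of 228 to 306 on these arrays. A dim probe may also be a poor probe, so these values bound the signal of the probe.

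**Figure D2:**
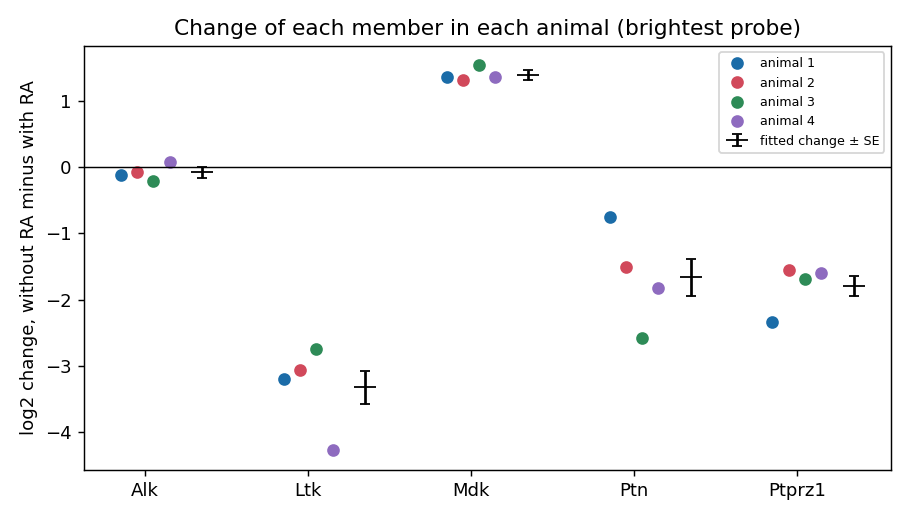
Log2 change (y axis, RA (-) minus RA (+)) of each member's brightest probe in each of 4 animals (coloured points), with the fitted change and its SE (black). The Mdk changes lie within 1.31 to 1.54, the Ptn changes spread from −2.58 to −0.75, and the Alk changes lie on both sides of 0.

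Of the ligands, Mdk rose. By its brightest probe the levels were 3.00, 3.25, 3.17 and 3.34 in RA (+) medium and 4.36, 4.56, 4.71 and 4.70 in RA (-) medium. The lowest RA (-) array was about 1 log2 unit above the highest RA (+) array. The change was 1.39 (SE 0.07, adjusted p = 9.51e-05), 2.62-fold, and 1.40 without animal 1. It was the most even change of the members, from 1.31 to 1.54 over the animals.

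A second Mdk probe gave a smaller rise of 1.00 (SE 0.08, adjusted p = 0.000378), or 2.00-fold, again in 4 of 4 animals. Its RA (+) levels were close together, at 3.32, 3.35, 3.38 and 3.35, and its RA (-) levels were 4.20, 4.35, 4.53 and 4.32. Both probes carry the accession NM_010784, and the difference in size between them was not tested. Both were called under all alternatives run, with changes of 1.19 to 1.54 for the brighter and 0.77 to 1.15 for the other.

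Ptn, the second growth factor of the pair, went the other way. Its brightest probe read 1.49, 1.23, 1.84 and 1.46 in RA (+) medium and 0.74, −0.27, −0.74 and −0.37 in RA (-) medium. All RA (-) arrays were below all RA (+) arrays, but the RA (-) array of animal 1 stayed about 1 log2 unit above the other RA (-) arrays. The change was −1.67 (SE 0.28, adjusted p = 0.00357), 3.17-fold lower, and −1.97 without animal 1. Per animal it was −0.75, −1.50, −2.58 and −1.83, the widest relative spread among the members called.

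The other Ptn probe showed the same pattern. It read 0.73, 0.61, 1.19 and 0.83 with retinoic acid and −0.17, −1.18, −1.36 and −0.99 without, a change of −1.77 (SE 0.25, adjusted p = 0.00222). Animal 1 again had the smallest change, −0.91, and animal 3 the largest, −2.55. Both probes carry the accession NM_008973, and their changes differ by less than 1 SE.

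Mdk and Ptn thus moved in opposite directions in every animal. The Mdk change exceeded the Ptn change by 2.11, 2.81, 4.12 and 3.19, a mean of 3.06 ± 0.84 (SD, n = 4). The exact two-sided sign-flip permutation test gave p = 0.125, the smallest possible, and 0.125 adjusted over the 2 pairs. With Mdk up and Ptn down in every animal, that p was fixed beforehand and adds no support. In signal, the ratio of Mdk to Ptn was 8.33-fold higher in RA (-) spheres by the brightest probes. It was 7.53-fold higher with the mean over each gene's probes and 6.53-fold under normexp with quantile normalization. Leaving out single animals gave 6.52-fold to 10.4-fold.

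Ptprz1, the phosphatase that both factors bind, fell with Ptn. Its brightest probe read −0.11, −0.36, −0.40 and −0.10 in RA (+) medium and −2.45, −1.91, −2.10 and −1.69 in RA (-) medium. The groups were separated by more than 1 log2 unit and all 8 arrays were well above background. The change was −1.80 (SE 0.15, adjusted p = 0.000283), 3.47-fold lower, and −1.61 without animal 1. The other probe gave −1.76 (SE 0.16, adjusted p = 0.000524), with −0.42 to −0.79 in RA (+) and −2.05 to −2.68 in RA (-) medium. Under normexp with quantile normalization the changes were −1.10 and −1.07, still called.

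The animals did not rank alike for Ptn and Ptprz1. In animal 1 Ptn had its smallest change (−0.75) and Ptprz1 its largest (−2.34), while in animal 3 Ptn had its largest (−2.58) and Ptprz1 a value (−1.70) near those of animals 2 and 4. With 4 animals this ordering was not tested. By the likeness measure described next, Ptn ranked 1299th among genes in its closeness to Ptprz1.

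Ptn and Ptprz1 are also made by glia, so glial markers are given beside them. Of 16 listed Schwann and satellite glia markers, 13 were tested. Of these 6 were called lower and 1 higher, where 28.2% and 36.1% of all tested genes were. Their median change was −0.34 against 0.07 for all genes. The summed signal of the 16 was 49.7 to 57.3 times the 75th percentile in RA (+) and 27.1 to 34.4 times in RA (-) medium. Among the defining markers, Erbb3 stood well above background on 0 of the 8 arrays. Sox10, named with the next 3 genes after their values were seen, had a change of −0.12 and was not called. It was 0.027 with spike-in scaling, and −0.23 and called when arrays were scaled on detected probes (limma adjusted p = 0.0499). The 6 genes called lower had changes of −2.39 to −0.59, among them Ngfr, the p75 neurotrophin receptor (−2.39), and Fabp7, a fatty acid binding protein (−0.99). The gene called higher was the transcription factor Pou3f1 (1.28). The part of glial cells in the Ptn and Ptprz1 changes was not tested.

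Likeness to a member was measured as the root mean square difference of log2 levels over the 8 arrays, after each gene was centred on its own mean. The genes nearest to Mdk were Haus6 (0.046), Haus5 (0.054) and Blm (0.054). Nearest to Ptprz1 were Nxph3 (0.13), Bhlha15 (0.14) and Rarb (0.15), the last being retinoic acid receptor beta, with a change of −1.77 (SE 0.09). Cadm3 (0.14), Sez6l2 (0.15) and Ppfia4 (0.15) were nearest to Ptn. For Ltk the distances were larger, with H2-K1 at 0.27, Pthlh at 0.29 and Bace2 at 0.30. Baz2a (0.056), Pabpc1 (0.072) and Coro2b (0.074) were nearest to Alk. Since most genes changed with the medium, genes of like size and direction are close by construction.

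**Figure D3:**
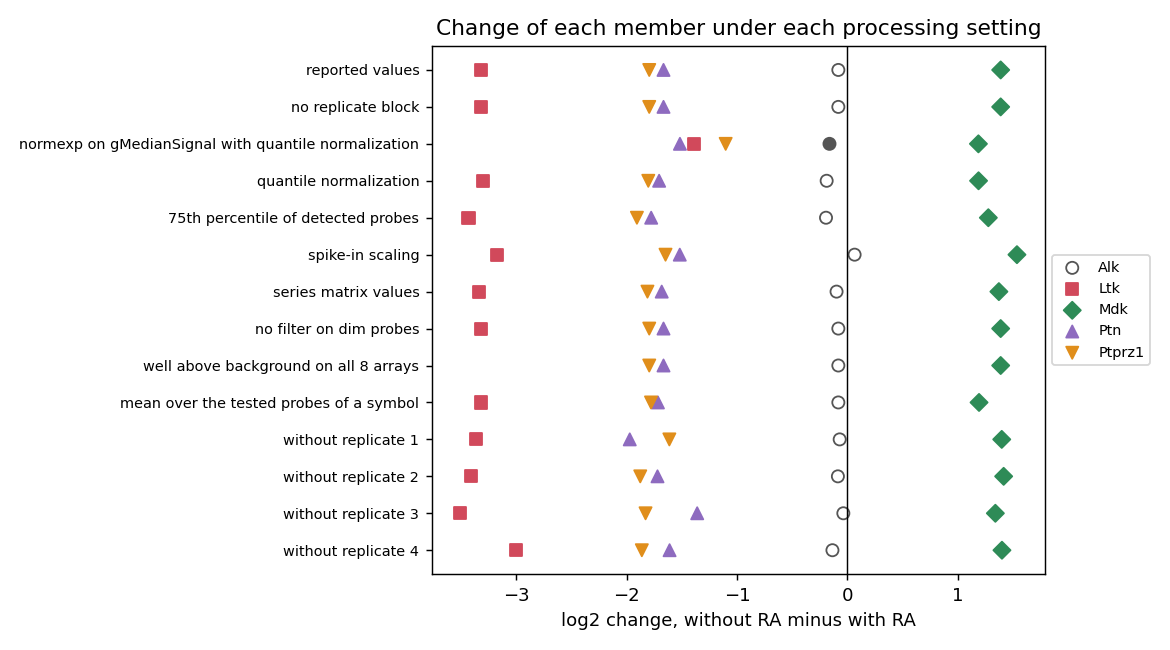
Log2 change of each member (x axis, RA (-) minus RA (+)) under the reported processing and 13 alternatives (y axis); filled symbols had an adjusted p under 0.05. Mdk stays between 1.19 and 1.54, Ltk moves from −3.32 to −1.39 under normexp with quantile normalization, and Alk crosses 0 with spike-in scaling.

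Other genes of the system were taken from 6 lists, 125 genes in all. Of 111 tested, 64 (57.7%) were called, 23 higher and 41 lower, with a median change of −0.13. Of all tested genes 64.3% were called, 36.1% higher and 28.2% lower, and the counts of each list stand beside these shares. With spike-in scaling 38 of the list genes were called.

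Among 21 tested cell-surface and matrix proteins reported to bind midkine or pleiotrophin, 6 were called higher and 8 lower (66.7% called, median −0.15). Bcan, the brain proteoglycan brevican, was not well above background in RA (-) medium by either of its probes, on any array. It was at least 9.04-fold lower by the brighter probe and at least 1.84-fold lower by the other. For the brighter probe, normexp with quantile normalization gave −1.29, smaller in size than its bound. Bcan passed the filter on dim probes only through RA (+) arrays, so its call, counted among the 8 lower, carries little weight. Itga4, the alpha 4 integrin chain, went from 1.58 to −1.08, a change of −2.66 (SE 0.08). Cspg5, the transmembrane proteoglycan neuroglycan C, had a change of −2.23 (SE 0.14). Sdc2, the heparan sulfate proteoglycan syndecan 2, had one of −1.70 (SE 0.18), or −0.85 under normexp with quantile normalization, and was well above background on 3 of 4 RA (-) arrays.

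Of 16 tested genes listed as partners, substrates or the closest relative of Ptprz1, 8 were called lower and 1 higher (56.25% called, median −0.24). These are called Ptprz1 partners below. L1cam, a neuronal adhesion molecule, had a change of −1.96 (SE 0.13). Tnr, the matrix protein tenascin R, had one of −1.69 (SE 0.34), or −0.90 under normexp with quantile normalization. Magi3, a scaffold that binds the phosphatase, changed by −1.15 (SE 0.14), and −0.89 by its other probe. Ptprg, the closest relative of Ptprz1, changed by −0.90 (SE 0.12) by the brightest of 3 probes and by −1.29 and −1.21 by the others. The 1 gene called higher was Ctnnb1, beta-catenin, at 0.35 (SE 0.09), named after its value was seen; that call was lost without animal 2 and under all 4 alternatives of scaling that rescaled the scanner values. Without animal 2 or animal 4, and with spike-in scaling or no filter on dim probes, 5 were lower.

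Of 29 tested adaptors and effectors through which Alk signals, 10 were called lower, 3 higher and 16 were not called (44.8% called, median −0.09). Mapk3, which encodes ERK1, went from 3.95 to 2.60, a change of −1.35 (SE 0.08), and its other probe gave −1.38. Irs2, an insulin receptor substrate, changed by −1.03 (SE 0.10). Stat3, a transcription factor downstream of several kinases, changed by −0.83 (SE 0.09). Gab1, a docking protein, had a change of −1.56 (SE 0.35), or −0.32 under normexp with quantile normalization, and was well above background on 2 of 4 RA (-) arrays. The genes called higher, named after their values were seen, were Rapgef1 (0.43), Pik3r1 (0.35) and Ptpn11 (0.30). The Pik3r1 and Ptpn11 calls were each lost under 7 of 13 alternatives, Pik3r1 without animal 1, 2 or 3 among them and Ptpn11 without animal 1, 2 or 4. Only 1 gene was called higher without animal 1 or animal 2, and none with spike-in scaling, where 5 were lower; without animal 2, 6 were lower.

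Genes listed as responding to ERK or Alk signalling went both ways, with 4 of 18 tested called higher and 6 lower (55.6% called, median 0.10). The list does not separate genes that such signalling raises from genes that it lowers. Dusp6 and Dusp4, phosphatases that switch ERK off, rose by 1.78 (SE 0.13) and 1.77 (SE 0.11). Dusp6 went from 2.20 to 3.98, and Dusp4 from −1.79 to −0.02. The other 2 called higher, named after their values were seen, were the cyclin Ccnd1 (1.39) and the ERK pathway inhibitor Spred1 (0.25), whose call was lost under 9 of 13 alternatives, leaving out any single animal among them. Fos, an immediate early gene, had a change of −3.12 (SE 0.09), or −1.86 under normexp with quantile normalization. Ret, a receptor tyrosine kinase that Alk signalling has been reported to raise, went from 5.01 to 3.57, a change of −1.43 (SE 0.13). With spike-in scaling 3 genes of this list were lower.

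The enzymes that build or modify the glycosaminoglycan chains bound by both growth factors were split evenly. Of 27 tested, 9 were called higher and 9 lower (66.7% called, median −0.03). Chst7, a chondroitin 6-sulfotransferase, was well above background on 0 of 4 RA (-) arrays and was at least 21.7-fold lower. Normexp with quantile normalization gave −2.19, again smaller in size than the bound. Chst7 too passed the filter only through RA (+) arrays, so its call, counted among the 9 lower, carries little weight. Chst11, a chondroitin 4-sulfotransferase, changed by −1.35 (SE 0.10) and Dsel, related to dermatan sulfate epimerase, by −1.22 (SE 0.07). Hs6st2, a heparan sulfate 6-sulfotransferase, rose by 2.27 (SE 0.27), or by 1.04 under normexp with quantile normalization. With spike-in scaling 4 genes were called lower.

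**Figure D4:**
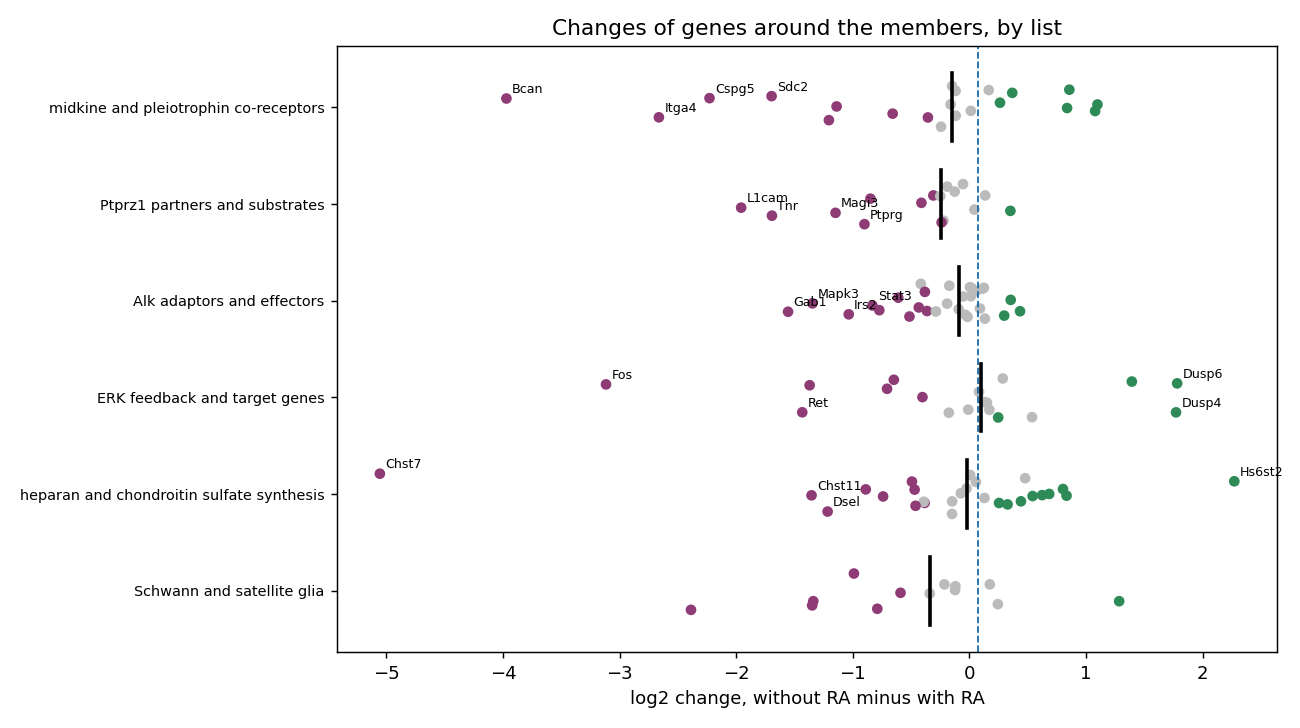
Log2 change (x axis, RA (-) minus RA (+)) of every tested gene of 5 lists around the members and of the glial markers (y axis); green and purple points were called higher and lower, grey points were not called, black bars are list medians and the dashed line is the median of all tested genes, 0.07. The list medians lie from −0.34 to 0.10, and named points carry their symbols.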

How the data were processed

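Total RNA (integrity number over 8 per the labels' protocols; 40 or 200 ng labelled with Cy3, not tied to arrays) of 4 RA (+) and 4 RA (-) cultures was hybridised to arrays of design 028005. Per the file headers, the authors extracted intensity values with Agilent Feature Extraction 11.5.1.1 (annotation mm9), on 1 slide, with background subtraction and detrending inside the array and no scaling across arrays. The authors' deposited log2 table matched the processed intensities after centring each probe (correlation at least 0.9999); its exact scaling stays unknown.

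Control and outlier spots were left out, log2 intensities had the array's 75th percentile subtracted, and probes were named by accession through RefSeq (GRCm38.p6; names only). A probe was tested if 4 or more of the 8 arrays had it well above background, and the brightest probe stood for a gene. limma 3.58.1 (R 4.3.3) was fitted across all genes with the animal as a block, two-sided, with Benjamini-Hochberg adjustment; values for a gene's other probes come from the same fit over all 29358 probes. The pairing comes from the series' design text, and deviations from the medium mean correlated within animals 1 to 4 at 0.52, 0.30, 0.19 and 0.33. P-values rest on the spread between these 4 animals, whose number limits precision, after limma moderated it with the spread of all tested genes. With spike-in scaling the limma adjusted p of Chst7 was 1.23e-76. Calls under that scaling therefore rest largely on the shared spread and less on each gene's own. A bound ("at least") sets the mean of the brighter medium against the mean, per array of the dimmer one, of the higher of the probe's own level and the lowest level well above background.

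Members and lists were chosen with earlier results of these data known. Named genes are the members, Alkal1 and Alkal2, up to 4 called genes with the largest change per list, Th, Rarb, Dhrs3 and Cyp26b1, and the 3 likest genes per member. Cyp26b1, an RA-degrading enzyme, was called lower (level 7.94 in RA (+); well above background on 1 of 4 RA (-) arrays). The fit was tested on simulated data. Values of some listed glial markers are not reported here. Further marker lists were retinoic acid response (3 lower of 3), fibroblast (2 higher and 4 lower of 8 tested), immune (3 lower of 5), endothelial (1 lower of 3) and adrenocortical (2 higher of 3). Of all tested genes 36.1% were called higher and 28.2% lower. The immune markers Aif1 and Adgre1 and the fibroblast marker Dcn, named after their values were seen, were well above background on 0 of 4 RA (-) arrays. They passed the filter only through RA (+) arrays, so their calls as lower carry little weight.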

Additional observations from a re-analysis of the deposited data

How the results depend on the processing

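The calls of Ltk, Mdk, Ptn and Ptprz1 held, with their direction, under every alternative that tested them, and 7 of 8 member probes were called in the reported fit. Leaving out each animal gave changes of −3.51 to −3.00 for Ltk, 1.34 to 1.42 for Mdk, −1.97 to −1.36 for Ptn, −1.88 to −1.61 for Ptprz1 and −0.13 to −0.04 for Alk. Dropping the replicate block (the pairing by animal) gave 8022 called genes against 8705, and no member's call changed. Alk was called under normexp with quantile normalization (−0.16) and had the opposite sign with spike-in scaling (0.066), as did Sox10 (0.027).

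With spike-in scaling 5413 genes were called, 2027 of them lower, and 38 list genes; 5 Ptprz1 partners, 5 Alk adaptors, 3 ERK-related and 4 glycosaminoglycan genes were lower, and 0 Ptprz1 partners and 0 Alk adaptors higher. Called genes were 56.1% higher in the reported fit, and 46.3% when arrays were scaled on detected probes, 47.0% under quantile normalization and 47.4% under normexp with it. Ptprz1 partners called higher were 0 under these 3 settings and 2 with no filter on dim probes, which left 5 lower. Alk adaptors called higher were 1 under quantile normalization and with detected probes. Leaving out single animals gave 0 to 1 Ptprz1 partners higher and 5 to 8 lower, and 1 to 2 Alk adaptors higher and 6 to 8 lower. The cause of these shifts was not tested. Normexp on the mean spot signal was not run, as the median signal was used instead, a choice made after seeing the files. Signal near background limits the sizes for Ltk, Bcan, Chst7, Gab1 and Sdc2.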
